A study of Mus musculus with 20 samples.

Results

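Growth cones, the motile tips of growing axons, were compared with cell bodies (somata) of the same class of neuron by RNA sequencing in mice. The neurons are subcerebral projection neurons, cortical neurons that send axons to the brainstem and the spinal cord. The comparison held 10 of the 20 libraries of the series, chosen by their labels: 5 from growth cones and 5 from somata, all of genotype WT and all from postnatal day 1. The growth cone libraries carry the experiment numbers 7 to 11 and the tissue label brainstem and spinal cord. The soma libraries carry the numbers 12, 14, 22, 25 and 26 and the tissue label cortex. The labels do not say how growth cones or somata were isolated, nor whether libraries came from separate animals, so p-values measure the spread between these libraries, which may be technical. The other 10 libraries, growth cones and somata labelled as Bcl11b KO, enter here in the check of Bcl11b and in a side by side comparison at the end. Compartment, tissue, experiment number and the range of RNA used per library (1.8 to 3.1 ng for somata, 0.19 to 3.1 ng for growth cones) changed together and cannot be told apart.

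A growth cone reads guidance cues through membrane receptors, rearranges actin and microtubules in response, and draws energy from local mitochondria. It lies far from the nucleus, and a subset of mRNAs is carried along the axon by RNA-binding proteins and motors and translated there by local ribosomes. In axons of other systems, mRNAs of ribosomal proteins, mitochondrial proteins and cytoskeletal regulators are known members of this local pool.

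Bcl11b, the transcription factor gene that the KO labels name (GRCm38 chr12:107910403-108003602, minus strand), was counted in every library. It took 76.4 to 131 CPM (counts scaled to the library total) in growth cones labelled WT and 494 to 780 in somata labelled WT. Growth cones labelled KO held 67.1 to 144 and somata labelled KO 1023 to 1151. The soma values thus go against the genotype labels, and groups are named here by their labels. The counts do not show which exons were read, so they do not check a deletion of part of the gene.

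Total counts per library were 26382991 to 29323028 in growth cones and 18962308 to 36059112 in somata. Between 17828 and 19083 genes had at least 1 count in a growth cone library and between 17639 and 19380 in a soma library, and the difference of the means was within the spread (exact permutation test, two-sided, adjusted p = 0.627 over 6 library measures). Long noncoding RNAs took 1.35 ± 0.098% of counts in growth cones and 0.603 ± 0.066% in somata (SD, n = 5, adjusted exact permutation p = 0.0238). Mitochondrially encoded genes took 0.426 ± 0.090% and 0.461 ± 0.087% (adjusted exact permutation p = 0.627). Soma library 12 stood apart from the other somata in the length of the genes read and in the sums of several lists, as given below. With 5 libraries against 5 this permutation test cannot give an unadjusted p below 0.00794.

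Before the neuronal genes, markers of other cells were read, because the tissue label differed between growth cones (brainstem and spinal cord) and somata (cortex). Growth cone libraries held RNA of many of these markers, and soma libraries mostly held less. Ttr, the transthyretin gene of the choroid plexus, lay at 719, 786, 557, 887 and 621 TPM (counts divided by exonic length and scaled to the same sum in each library) in the growth cone libraries 7 to 11. It lay at 0.316 to 1.46 TPM in the somata. Ptgds, a prostaglandin synthase of the meninges, had 374 to 663 TPM in growth cones and 0.227 to 1.88 TPM in somata. The alpha-globin gene Hba-a1 had 436 to 920 TPM against 5.93 to 25.7 TPM. Each of the 3 genes was higher in all growth cone libraries than in any soma library.

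Transcription factors that pattern the brainstem and spinal cord, such as the Hox genes, were nearly absent from the somata. Of 44 such genes, 40 had at most 3 counts in every soma library and 21 had 0 counts in all of them, among them En1, Lbx1 and Pax2. Summed over the list, growth cone libraries held 221 to 401 TPM and soma libraries 0.356 to 11.4 TPM. Hoxb5, for example, lay at 23.8 to 41.4 TPM in growth cones and had at most 2 counts in any soma library. The motor neuron factor gene Mnx1 was at 0 in all growth cone libraries as well, and so were Chat, Fev and Isl2 among 19 other markers of brainstem and spinal cord neurons. Schwann cell and peripheral markers summed to 79.2 to 111 TPM in growth cones and 0.439 to 16.1 TPM in somata.

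Markers of glia and progenitors were also higher in growth cone libraries. Astrocyte markers summed to 1113 to 1493 TPM against 102 to 497 TPM in somata, and 14 of the 16 were called higher, none lower. Over all genes tested 23.1% were called higher and 19.7% lower. Neural progenitor and radial glia markers summed to 2591 to 3674 TPM against 84.1 to 335 TPM. Most of that sum was Fabp7, a fatty acid binding protein of radial glia, at 2118 to 3067 TPM in growth cones and 36.1 to 224 TPM in somata. Of 14 oligodendrocyte lineage markers tested 10 were higher and 1 lower, with Myrf at 0 in all growth cone libraries, and the list summed to 459 to 1158 TPM against 115 to 205 TPM. The myelin gene Mbp ranged from 66.1 to 579 TPM among growth cone libraries, with library 9 the highest and library 10 the lowest.

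Summed microglia and vascular markers overlapped between the groups. Microglia markers summed to 206 to 289 TPM in growth cones and 78.6 to 346 TPM in somata. Of 14 tested, 2 were higher, 1 lower and 11 not past the threshold. Tyrobp was higher in growth cones (99.2 ± 22.6 against 7.80 ± 4.91 TPM, SD, n = 5). The median log2 fold change of the list was 0.60, and -0.397 in a separate fit that corrects for gene length, described below. Vascular and mural markers summed to 81.0 to 237 TPM against 46.7 to 108 TPM, and 1 of the 11 tested passed. Red blood, meningeal and choroid plexus markers were higher in every growth cone library than in any soma library. Red blood cell markers summed to 808 to 1624 TPM against 17.5 to 59.95 TPM, meningeal fibroblast markers to 473 to 775 TPM against 6.61 to 35.4 TPM, and choroid plexus and ependymal markers to 584 to 930 TPM against 1.54 to 9.25 TPM. The list named forebrain interneuron markers summed to 1347 to 1944 TPM in growth cones and 575 to 967 TPM in somata. Its member somatostatin (Sst) lay at 372 to 564 TPM against 12.5 to 27.4 TPM. The sum of this list does not show the region of the cells that held the RNA. These markers moved with the compartment in every result below, and their part in those results was not tested. In bulk samples, fewer cells of a type and less RNA per cell cannot be told apart.

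**Figure D1:**
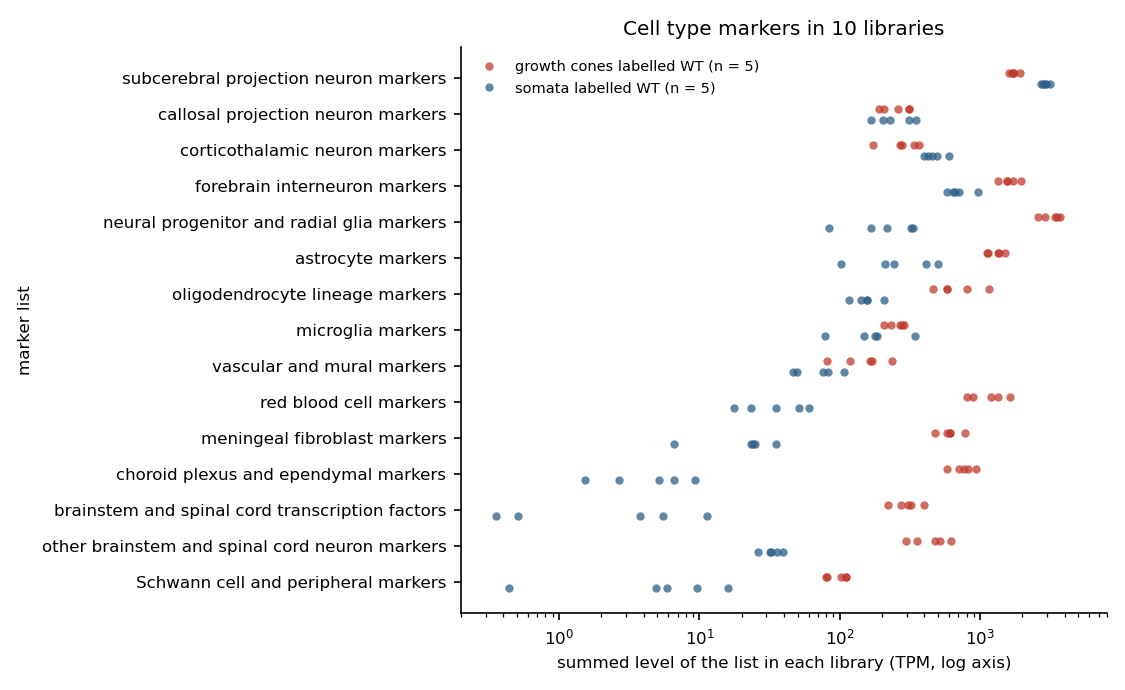
Summed level (TPM, log axis) of the genes of 15 marker lists in each of the 5 growth cone libraries (red) and 5 soma libraries (blue) labelled WT. Brainstem and spinal cord transcription factors sit between 221 and 401 TPM in growth cones and between 0.356 and 11.4 TPM in somata, while subcerebral projection neuron markers sit above 1600 TPM in both groups.

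Subcerebral projection neuron markers were present in both compartments. The 18 markers summed to 1612 to 1908 TPM in growth cones and to 2727 to 3130 TPM in somata. None was at 0 in all libraries of either group. This held for other lists too, among them callosal, corticothalamic, interneuron and progenitor markers. Callosal markers (15 genes) summed to 191 to 312 TPM in growth cones and 167 to 348 TPM in somata. Corticothalamic markers (10 genes) summed to 172 to 368 TPM and 400 to 599 TPM. The lists hold different genes in different numbers, so these sums do not rank the neuron types. In growth cones the interneuron sum (1347 to 1944 TPM) overlapped the subcerebral one, and the progenitor sum (2591 to 3674 TPM) exceeded it. Among the subcerebral markers Cdh13, an adhesion receptor, had 23.7 to 38.8 TPM in growth cones and 163 to 288 TPM in somata. The nuclear adaptor gene Ldb2 had 47.6 to 112 TPM against 573 to 697 TPM. The LIM-only transcription cofactor gene Lmo4 went the other way, with 250 to 434 TPM in growth cones and 32.9 to 42.4 TPM in somata, a log2 fold change of 3.39 ± 0.17 (SE). In all, 3 of the 18 markers were higher in growth cones (16.7%), 9 lower (50%) and 6 not past the threshold. Over all genes tested 23.1% were higher and 19.7% lower.

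Each gene was tested by edgeR's quasi-likelihood test on the raw counts with trimmed mean (TMM) scaling, and called at a Benjamini-Hochberg adjusted p (FDR) under 0.05. Adjusted p-values of single genes are those of edgeR, with n = 5 libraries per group. Of 15128 genes tested, 6476 (42.8%) were called, 3500 (23.1%) higher in growth cones and 2976 (19.7%) lower. The counts of each gene list are to be read beside these shares. The libraries of the 2 groups did not overlap for 5689 genes (37.6%). Without soma library 12, which stood apart, 3713 were higher and 2579 lower. A call with at least a 4-fold change was made for 2845 genes (18.8%). Over all genes tested, the log2 fold change had a median of 0.069. Levels below are in TPM, and fold changes come from the scaled counts. The growth cone reads fell on shorter genes, so the log2 ratio of TPM minus the log2 fold change was nearly constant and below 0 (median -0.307 over genes with at least 20 TPM in both groups).

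The most abundant mRNAs that were higher in growth cones encoded both ferritin chains, selenoprotein W, the RNA-binding protein Ybx1, thymosin beta 10, the AMPA receptor auxiliary protein Cnih2, the phosphatase inhibitor Ppp1r1a, neuronatin and ribosomal proteins. Those lower were led by tubulins, the growth cone phosphoproteins Crmp1 and Dpysl3, the microtubule protein Map1b and the chaperone Hspa8. The 24 genes named for abundance had to be called, to differ by at least 4-fold and to have no overlap between groups, so these features describe the choice and are not a result. Cnih2, which helps export glutamate receptors, had 4837 to 7019 TPM in growth cones and 1205 to 2027 TPM in somata. Nnat, a small membrane protein of developing neurons, had 3747 to 5800 TPM against 450 to 877 TPM. Among the lower genes, Usp22, a deubiquitinase of a chromatin complex, had 113 to 293 TPM against 784 to 1261 TPM.

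**Figure D2:**
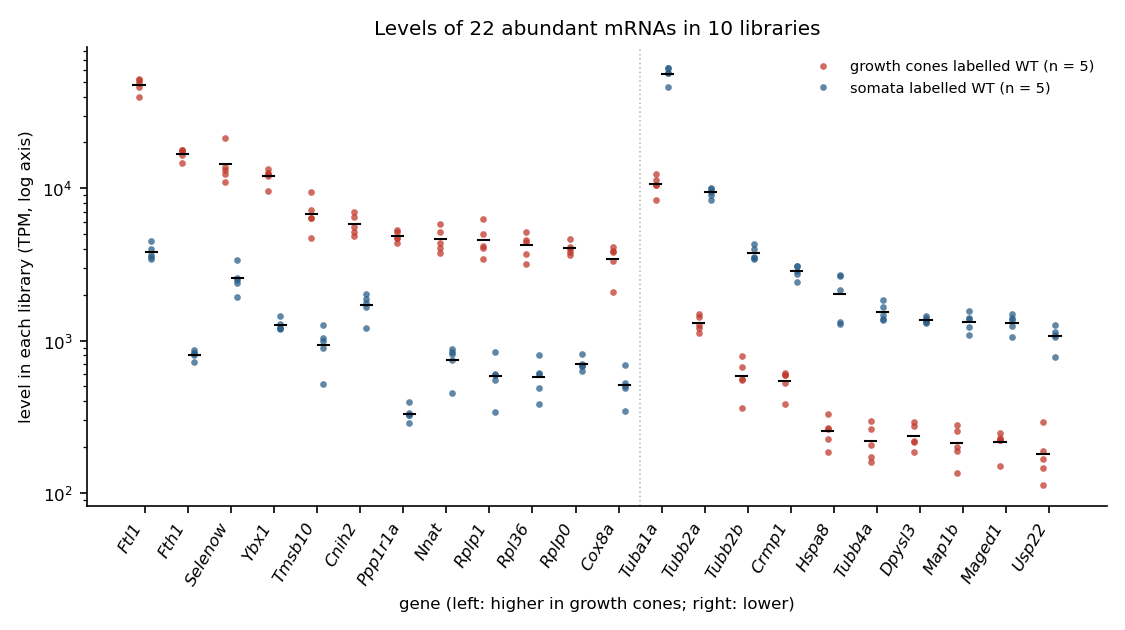
Level (TPM, log axis) of 22 of the 24 genes named for abundance, 12 higher and 10 lower in growth cones, in each library (points) with the mean of 5 (black bar). Ftl1 sits between 40040 and 52100 TPM in growth cones and between 3420 and 4485 TPM in somata, and Tuba1a between 8423 and 12350 TPM in growth cones and between 46080 and 61830 TPM in somata.

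Ferritin stores iron as a shell of light and heavy chains, and translation of both mRNAs is controlled by an iron-responsive element, a hairpin in the 5′ UTR bound by the iron regulatory proteins. The elements of both genes are shown because Ftl1 and Fth1 had the highest mean TPM of all mRNAs in the growth cone libraries and carry the same regulatory loop. They were read from GENCODE M21 transcripts, on the transcript strand, with the CAGTG of the loop in capitals. The Ftl1 element lies in exon 1 at GRCm38 chr7:45459781-45459810 (minus strand) and the Fth1 element in exon 1 at chr19:9982729-9982758 (plus strand).
Ftl1: tgtgtcttgcttcaaCAGTGtttgaacgga
Fth1: ggtttcctgcttcaaCAGTGcttgaacgga
The 30-base windows are identical at 26 positions. The loop pattern CNNNNNCAGTGN, searched on the transcript strand only, also occurs in the first 200 bases of 924 of 12200 protein-coding transcripts examined (7.57%), so the letters alone do not mark an element.

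Ftl1, the light chain gene (chr7:45457944-45459884), had 49100, 46470, 52100, 51750 and 40040 TPM in the growth cone libraries 7 to 11. In the soma libraries 12, 14, 22, 25 and 26 it had 4485, 3657, 3561, 4008 and 3420 TPM. The groups lay far apart, and the log2 fold change was 3.95 ± 0.14 (SE, adjusted p = 8.9e-09). Fth1, the heavy chain gene (chr19:9980598-9985098), had 14620, 16500, 17760, 17560 and 17830 TPM in growth cones. Its soma values were 872, 723, 806, 826 and 825 TPM, and the log2 fold change was 4.68 ± 0.13 (adjusted p = 1.4e-09). The table gives Fth1 an exonic length of 3469 bases while the transcript that holds the element has 929, so its TPM may be set too low relative to other genes.

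Of 17 tested members of a list of iron storage and handling, 6 were higher and 4 lower in growth cones, with a median log2 fold change of 1.13 (0.38 without growth cone library 7). Ftl1 and Fth1 are among the 6. Without both, a choice made after seeing the data, 4 of 15 were higher and 4 lower, with a median of 0.31. Over all genes tested 23.1% were higher and 19.7% lower. Iscu, the scaffold of iron-sulfur cluster assembly, was higher (183 ± 48.8 against 56.4 ± 3.57 TPM, SD, n = 5). The transferrin receptor Tfrc had 9.63 ± 5.88 and 21.4 ± 5.24 TPM and was not past the threshold (adjusted p = 0.0926). Tfrc was lower past it without growth cone library 10 (0.0299) and with limma-voom. The iron chaperone gene Pcbp1 had 361 ± 50.2 and 361 ± 41.2 TPM and was not past the threshold either (adjusted p = 0.119). Pcbp1 was higher past it in 6 of 22 alternative fits. Among these were the fit without soma library 12 (0.047), DESeq2's Wald test and scaling by library totals or upper quartile. The 4 lower members, of which 3 are named after their values were seen, included the iron regulatory proteins Aco1 (log2 fold change -1.51 ± 0.41) and Ireb2 (-1.92 ± 0.43). Ncoa4, the receptor that takes ferritin to the lysosome, was lower by the most (-3.29 ± 0.51).

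Antioxidant proteins were mostly higher in growth cones, with 13 of 22 higher (59.1%), 3 lower (13.6%) and a median of 0.68. Over all genes tested 23.1% were higher and 19.7% lower. Selenow, a small selenoprotein, had 11070 to 21430 TPM in growth cones and 1925 to 3394 TPM in somata, with growth cone library 11 the highest. Gpx4, which reduces lipid peroxides, had 1187 to 1424 TPM in growth cones and 269 to 417 TPM in somata, a log2 fold change of 2.33 ± 0.17. Thioredoxin (Txn1) had 1112 to 1342 TPM against 393 to 557 TPM (1.82 ± 0.15).

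Ribosomal protein mRNAs were higher in growth cones almost throughout. Of 81 genes of the cytosolic ribosome, 77 were higher in growth cones, 0 were lower and 4 were not past the threshold, beside 23.1% higher and 19.7% lower over all genes tested. Their median log2 fold change was 1.90. Their summed level was 70163, 78674, 64794, 52842 and 62605 TPM in the growth cone libraries 7 to 11 and 23936, 18301, 18131, 19025 and 16679 TPM in the soma libraries, so the lowest growth cone library stood above the highest soma library. Many ribosomal protein genes have processed pseudogenes, and how reads shared with such copies were counted is not given in the sources used here, so single values are uncertain. The same holds for ferritins, tubulins and globins.

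Within the ribosome the acidic stalk proteins were among the most abundant changed members. Rplp0 had 3630 to 4682 TPM in growth cones and 627 to 822 TPM in somata (log2 fold change 2.84 ± 0.16). Rplp1 had 3423 to 6289 TPM against 341 to 844 TPM (3.29 ± 0.29). Rpl12, which anchors the stalk, had 697 to 1052 TPM against 63.6 to 83.2 TPM (3.82 ± 0.19). The small subunit proteins Rpsa and Rps2 had fold changes of 2.7 ± 0.13 and 2.97 ± 0.16 on the log2 scale. Among the members not past the threshold were Rpl29 (0.49 ± 0.31), Rpl5 (0.55 ± 0.21) and Rpl7l1 (-0.33 ± 0.15). Rpl29 passed without growth cone library 10 (0.71, adjusted p = 0.0283), and Rpl5 without growth cone library 11 (0.0291) or soma library 12 (0.019). In all, Rpl5 passed in 10 of 22 alternative fits, among them DESeq2's Wald test and scaling by library totals or upper quartile. Rpl7l1 is a relative of Rpl7 rather than a standard ribosomal protein.

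The factors that drive translation did not move with the ribosome. Of 60 initiation and elongation factors tested, 12 were higher (20%), 24 lower (40%) and 24 not past the threshold, with a median of -0.44. Over all genes tested 23.1% were higher and 19.7% lower. The summed level of the list overlapped between the groups (12440 to 13900 TPM in growth cones, 12430 to 13020 TPM in somata). The start codon recognition factors Eif1 and Eif1b were higher. Eif1b had 1739, 1882, 1815, 1703 and 1855 TPM in growth cones and 327, 310, 265, 369 and 319 TPM in somata (log2 fold change 2.82 ± 0.14). Eef1a1, which delivers tRNAs to the ribosome, had 2663 to 3180 TPM against 1522 to 1795 TPM (1.16 ± 0.13). Eif3b, a scaffold of the initiation complex, was lower, with 90.7 to 137 TPM in growth cones and 335 to 531 TPM in somata (-1.70 ± 0.14). Eif5a had 1145 ± 52.6 and 1678 ± 208 TPM and was not past the threshold (adjusted p = 0.134), except with all 20 libraries in the fit (0.029).

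Ribosome biogenesis, which takes place in the nucleolus, went opposite to the ribosomal proteins. Of 24 genes 17 were lower in growth cones and 4 higher, with a median of -1.27. Nucleolin (Ncl), which binds the precursor of ribosomal RNA, had 31.3 to 57.2 TPM in growth cones and 170 to 203 TPM in somata (-1.76 ± 0.18).

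Nuclear-encoded mRNAs of the respiratory chain went both ways, most of them higher in growth cones. Of 78 respiratory chain genes tested, 54 were higher in growth cones and 10 lower, with a median of 1.03. Cox8a, a small subunit of cytochrome oxidase, had 2091 to 4121 TPM in growth cones and 347 to 687 TPM in somata (3.08 ± 0.27). Ndufa6, a subunit of complex I, had 347 to 534 TPM against 87.2 to 111 TPM (2.58 ± 0.20). In contrast the catalytic beta chain of ATP synthase, Atp5b, had 416 to 509 TPM in growth cones and 1738 to 2055 TPM in somata (-1.75 ± 0.13).

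Among the lower members, named after their values were seen, were Uqcrc1, Uqcrc2, Atp5a1, Atp5b, Ndufs1, Ndufv1, Ndufa9, Sdha and Sdhb. Ndufs1, a subunit of complex I, was lowest, at -2.85 ± 0.23. Uqcrc1 had 96.5 to 131 TPM in growth cones and 598 to 697 TPM in somata (-2.18 ± 0.14), and Atp5a1 343 to 507 TPM against 1309 to 1559 TPM (-1.49 ± 0.11). Atp5c1, the gamma chain, had 614 ± 60.2 and 739 ± 63.8 TPM and was not past the threshold (adjusted p = 0.811).

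Mitochondrial ribosomal proteins showed a weaker form of the cytosolic pattern, with 42 of 77 tested higher, 5 lower and a median of 0.78. Mrps24 (2.32 ± 0.17) and Mrpl52 (3.04 ± 0.30) were among those higher. Of 12 mRNAs encoded by the mitochondrial genome that were tested, 1 was higher, 2 lower and 9 not past the threshold. The median was 0.20, and -1.47 in a separate fit that corrects for a trend with gene length, described below. The higher one was mt-Nd2, at 517 to 645 TPM in growth cones and 254 to 530 TPM in somata, where 1 growth cone library lay below the highest soma library. With the length correction it was lower instead (-0.51, adjusted p = 0.0234). The lower ones were mt-Nd1 (-0.60 ± 0.17) and mt-Co1 (-0.40 ± 0.14, adjusted p = 0.033). Without soma library 12, mt-Nd1 did not pass the threshold (-0.38, adjusted p = 0.0535). Its call was also lost under upper-quartile scaling and with protein-coding genes only. The call of mt-Co1 was lost without soma library 12 (adjusted p = 0.149) or 25 (0.121) and without growth cone library 7, 8, 9 or 10 (0.0512 to 0.0787), and with all 20 libraries in the fit (0.0713). In all, mt-Co1 lost its call in 14 of 22 alternative fits, among them DESeq2's Wald test and scaling by library totals or upper quartile.

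Tubulin mRNAs, led in somata by Tuba1a, the mRNA with the highest mean TPM there, were lower in growth cones. The 17 tubulins summed to 16940, 14694, 18449, 19125 and 17193 TPM in the growth cone libraries 7 to 11 and 85497, 72570, 94930, 87542 and 90652 TPM in the soma libraries. Of 13 tested 8 were lower and 1 higher, the gamma-tubulin Tubg2 (0.80 ± 0.21, named after its value was seen), with a median of -1.85. Tuba1a, the main alpha-tubulin of young neurons (chr15:98949837-98953703), had 10580, 8423, 11270, 12350 and 10580 TPM in growth cones. In somata it had 57230, 46080, 61830, 57110 and 61550 TPM (log2 fold change -2.12 ± 0.12, adjusted p = 2.7e-07). The neuronal beta-tubulin Tubb3 had 1204 to 1959 TPM against 5990 to 8139 TPM (-1.85 ± 0.16). Tuba1b, a close relative of Tuba1a, had 1296 ± 269 and 1699 ± 256 TPM and was not past the threshold (adjusted p = 0.684).

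The chaperonin that folds newly made tubulin and actin was lower as well. All 8 subunits of the TRiC complex were tested, 7 were lower and the median was -2.04. Cct7 had 65.4 to 105 TPM in growth cones and 433 to 531 TPM in somata (-2.21 ± 0.16), and Cct8 112 to 219 TPM against 707 to 969 TPM (-2.13 ± 0.16). The exception was Cct2, at 232 to 284 TPM in growth cones and 264 to 344 TPM in somata (0.015 ± 0.14), which was lower with the length correction (-0.53, adjusted p = 0.0214).

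Microtubule-associated proteins and stathmins were mostly lower, with 22 of 32 lower, 3 higher and a median of -0.95. Map1b had 135 to 279 TPM in growth cones and 1081 to 1569 TPM in somata (-2.36 ± 0.15). Stmn1, which binds free tubulin, had 1896 to 2140 TPM against 7037 to 9085 TPM (-1.69 ± 0.13). Its relative Stmn2, which is carried into axons, had 924 to 1425 TPM against 1283 to 1708 TPM, overlapped between groups and had a log2 fold change of -0.057 ± 0.13. Crmp1 and Dpysl3, collapsin response mediators that bind tubulin, had log2 fold changes of -2.09 ± 0.13 and -2.23 ± 0.12.

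Actin genes went both ways, with 10 of 40 higher (25%), 21 lower (52.5%) and a median of -0.66. Over all genes tested 23.1% were higher and 19.7% lower. The actin monomer binding thymosin Tmsb10 had 6425, 9422, 6358, 4739 and 7180 TPM in growth cones and 1261, 989, 891, 1046 and 520 TPM in somata (3.19 ± 0.29). Its relative Tmsb4x had 8823 to 15350 TPM against 6386 to 9282 TPM, with 1 growth cone library below the highest soma library (1.10 ± 0.20). With the length correction its call was lost and its direction turned (-0.14, adjusted p = 0.564). Evl, which promotes filament growth at the leading edge, had 617 to 955 TPM against 210 to 235 TPM (2.15 ± 0.11). Lower were Dbn1, which encodes the filament-binding protein drebrin (-2.27 ± 0.17), and Coro1c (-2.19 ± 0.15). The profilin gene Pfn2 (0.020 ± 0.13) and Marcksl1 (0.17 ± 0.15) were not past the threshold.

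Motor proteins were split, with 7 of 41 higher (17.1%) and 15 lower (36.6%), beside 23.1% and 19.7% over all genes tested. Their median was -0.28. Dync1i1, an intermediate chain of dynein, had 56.4 to 146 TPM in growth cones and 857 to 1100 TPM in somata (-2.88 ± 0.21). Kif3a, a kinesin for forward transport, had 24.1 to 70.7 TPM against 322 to 376 TPM (-2.62 ± 0.27). Kif2a, which takes microtubule ends apart, went the other way, with 43.1 to 97.2 TPM against 12.6 to 22.7 TPM (2.17 ± 0.24). The dynein light chain Dynll1 was also higher (1.48 ± 0.18).

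Gap43, the classical growth cone membrane protein, did not differ past the threshold on the counts of the 10 libraries. It had 3475, 4630, 4307, 4630 and 4613 TPM in growth cones and 7488, 6212, 5961, 5456 and 6575 TPM in somata. The TPM values did not overlap, but on scaled counts the log2 fold change was -0.24 ± 0.13 (adjusted p = 0.159). It was lower past the threshold with all 20 libraries in the fit (-0.29, adjusted p = 0.0361) and with the length correction (-1.40, adjusted p = 1.9e-05). Over a list of 29 tested mRNAs reported in axons of other systems, 9 were higher (31%), 7 lower (24.1%) and 13 not past the threshold. Over all genes tested 23.1% were higher and 19.7% lower. The median of the list was -0.057 (0.097 when scaled by library totals and 0.15 by upper quartile). A list of 26 mRNAs reported in dendrites had 5 higher and 5 lower (19.2% each), with a median of 0.046, beside 0.069 for all genes tested. Among the dendritic mRNAs, those of the microtubule protein Map2 (-1.59 ± 0.19) and of the scaffold Homer1 (-1.68 ± 0.20) were lower.

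**Figure D3:**
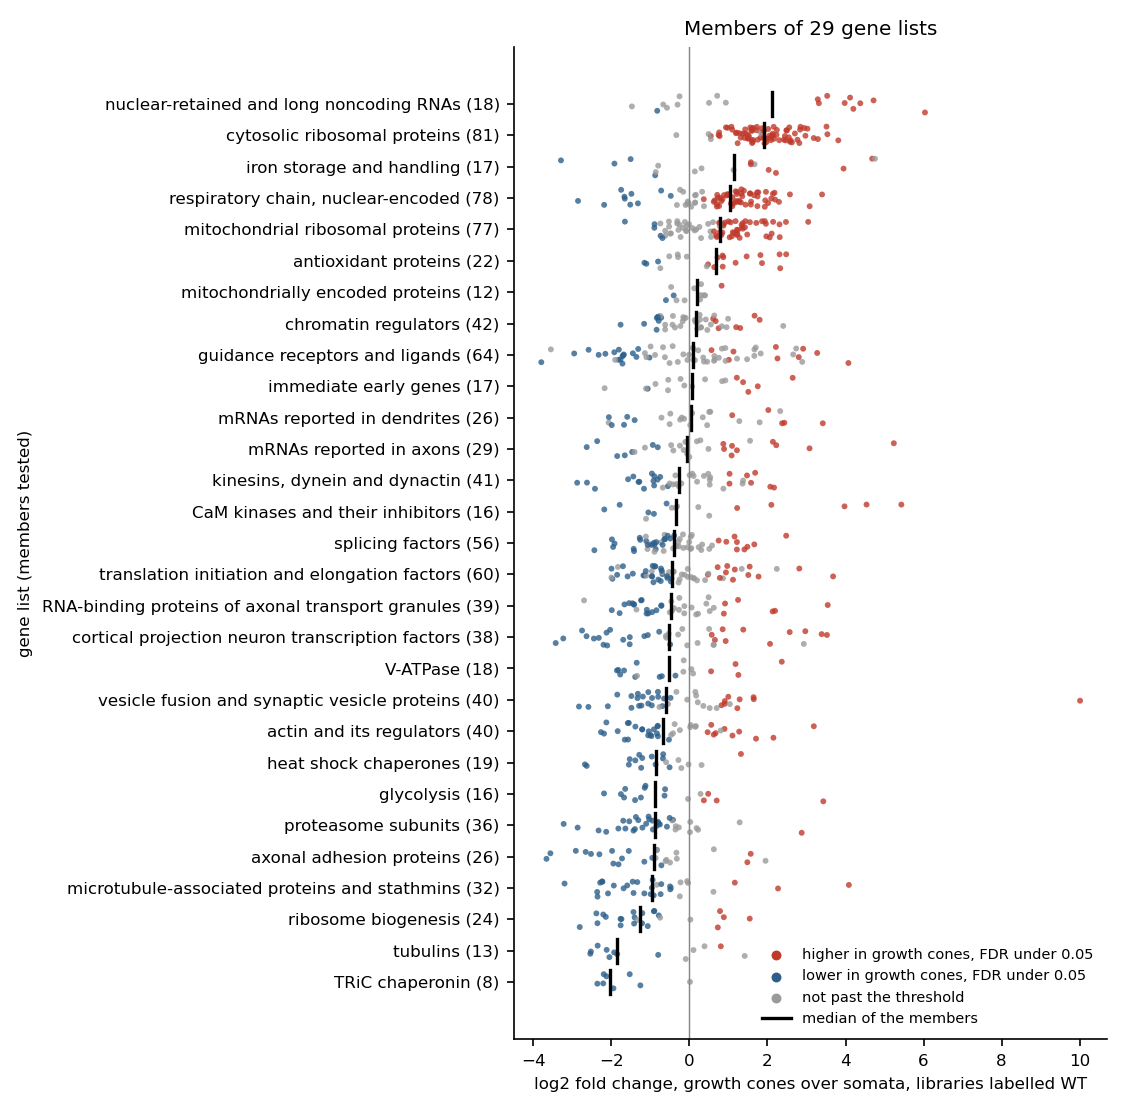
Log2 fold change between growth cones and somata labelled WT for each tested member of 29 gene lists (points; red higher, blue lower, grey not past an FDR of 0.05) with the median of each list (black bar). Cytosolic ribosomal proteins have a median of 1.90 and tubulins and TRiC subunits medians of -1.85 and -2.04.

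Protein breakdown and folding genes were lower in growth cones. Of 36 proteasome subunits tested, 26 were lower and 1 higher, with a median of -0.89. Psmd2, a large subunit of the regulatory cap, had 70.2, 85.0, 62.9, 64.7 and 56.7 TPM in growth cones and 633, 794, 839, 857 and 857 TPM in somata (-3.22 ± 0.18). Psmb5, a catalytic subunit whose gene has a short exonic length (899 bases), had 101 to 198 TPM against 722 to 979 TPM (-2.13 ± 0.23). The higher one was Psmb10, a catalytic subunit of the immunoproteasome, at 179 to 276 TPM against 30.6 to 45.2 TPM (2.88 ± 0.22). Psmb6, another catalytic subunit, was not past the threshold (-0.27 ± 0.15).

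Heat shock chaperones were lower for 13 of 19 members and higher for 1, with a median of -0.87. Hspa8, the constitutive cytosolic chaperone, had 187 to 329 TPM in growth cones and 1290 to 2686 TPM in somata (-2.68 ± 0.26). Hspa5, the chaperone of the endoplasmic reticulum, had 46.7 to 79.0 TPM against 266 to 633 TPM (-2.63 ± 0.24). Among somata both genes were lowest in libraries 12 and 14. The higher member was Hspe1, the small mitochondrial chaperonin (1.32 ± 0.19), whose call was lost with the length correction (0.14, adjusted p = 0.538).

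Glycolysis genes were lower for 10 of 16 (62.5%, beside 19.7% over all genes tested) and higher for 4 (25%, beside 23.1%), with a median of -0.88. Ldha, which makes lactate, had 277 to 389 TPM in growth cones and 1079 to 1645 TPM in somata (-1.67 ± 0.15), and the enolase Eno1 had 100 to 142 TPM against 478 to 518 TPM (-1.75 ± 0.16). Aldoa was not past the threshold (0.29 ± 0.15). It was higher past it in 6 of 22 alternative fits. Among these were the fit without growth cone library 10 (adjusted p = 0.0489), DESeq2's Wald test and scaling by library totals or upper quartile. Aldoc, an aldolase that is also an astrocyte marker, was higher (3.43 ± 0.36).

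Membrane traffic and adhesion genes were more often lower than higher. Of 40 vesicle fusion and synaptic vesicle genes, 20 were lower (50%) and 9 higher (22.5%), with a median of -0.60. Over all genes tested 19.7% were lower and 23.1% higher. Syt4, a synaptotagmin, had 108 to 127 TPM in growth cones and 755 to 991 TPM in somata (-2.59 ± 0.14). Rab3a, a vesicle GTPase, had 469 to 647 TPM against 629 to 901 TPM and was not past the threshold (-0.056 ± 0.15). Of 18 proton pump (V-ATPase) genes tested, 9 were lower (50%) and 4 higher (22.2%), with Atp6v1h at -1.86 ± 0.15.

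Adhesion proteins of axons were lower for 15 of 26 tested and higher for 2, with a median of -0.91. Ncam1, the neural cell adhesion molecule, had 111 to 151 TPM in growth cones and 495 to 720 TPM in somata (-1.95 ± 0.13). Nrcam, of the L1 family, had 10.1 to 19.5 TPM against 52.9 to 133 TPM, with soma library 12 the lowest soma library (-2.52 ± 0.27). Guidance receptors and ligands had no common direction. Of 64 tested, 9 were higher (14.1%), 17 lower (26.6%) and 38 not past the threshold, beside 23.1% higher and 19.7% lower over all genes tested. Their median was 0.093. The receptor Ephb1 (-2.15 ± 0.24) and the secreted semaphorin Sema3c (-2.95 ± 0.35) were lower. The receptor Epha4 had 27.4 ± 8.60 and 21.9 ± 11.8 TPM (SD, n = 5), and its groups overlapped (adjusted p = 0.222).

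Inhibitors of the calcium/calmodulin kinase CaMKII were higher in growth cones by more than 4 on the log2 scale. Camk2n2 (chr16:20619215-20621287) had 497, 637, 747, 580 and 687 TPM in growth cones and 17.8, 23.5, 18.1, 16.3 and 14.96 TPM in somata (5.43 ± 0.19, adjusted p = 8.9e-09). Camk2n1 had 88.0 to 220 TPM against 5.64 to 12.02 TPM (4.54 ± 0.32). The kinase subunit Camk2b was lower, with 41.0 to 119 TPM in growth cones and 331 to 492 TPM in somata (-2.18 ± 0.22). The subunits Camk2d (3.98 ± 0.55, named after its value was seen) and Camk2g (2.10 ± 0.27) were higher.

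Over the list of CaM kinases and their inhibitors, 5 of 16 were higher and 5 lower (31.2% each), beside 23.1% and 19.7% over all genes tested. The calmodulin gene Calm2 was lower (-0.58 ± 0.12). Ppp1r1a, an inhibitor of protein phosphatase 1 (chr15:103530279-103538003), had 4345 to 5291 TPM in growth cones and 287 to 393 TPM in somata (4.18 ± 0.15). Ppp1r9b, which targets the same phosphatase to dendritic spines, was also higher (2.43 ± 0.29).

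RNA-binding proteins of transport granules were lower for 16 of 39 (41%, beside 19.7% over all genes tested) and higher for 6 (15.4%, beside 23.1%). Their median was -0.46, while their summed level was higher in growth cones (11630 to 16340 TPM against 4988 to 5849 TPM). Most of that sum was Ybx1, a cold-shock domain protein that packs mRNA (chr4:119277981-119294604). It had 9658, 12390, 12000, 13340 and 12580 TPM in growth cones and 1459, 1276, 1201, 1196 and 1217 TPM in somata (3.54 ± 0.13, adjusted p = 8.9e-09). Its relative Ybx3 was higher as well (2.20 ± 0.17). Hnrnpk (-1.79 ± 0.14) and the stress granule protein G3bp2 (-1.46 ± 0.11) were lower, and Hnrnpa1 was not past the threshold (0.22 ± 0.15).

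mRNAs of proteins that act in the nucleus were measured in growth cones too, many of them at lower levels than in somata. Of 38 transcription factors of cortical projection neurons tested, 17 were lower (44.7%) and 10 higher (26.3%), with a median of -0.51. Over all genes tested 19.7% were lower and 23.1% higher. Bcl11b itself had 22.8, 34.0, 41.6, 37.6 and 32.4 TPM in growth cones labelled WT and 220, 346, 307, 313 and 216 TPM in somata labelled WT (-2.75 ± 0.18, adjusted p = 6.0e-07). Nfix had 40.9 to 67.7 TPM against 222 to 291 TPM (-2.12 ± 0.14). Mef2c, an activity-regulated factor whose gene has a long exonic length (15715 bases), had 16.4 to 50.5 TPM against 436 to 553 TPM (-3.43 ± 0.26).

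Splicing factors were lower for 21 of 56 (37.5%, beside 19.7% over all genes tested) and higher for 9 (16.1%, beside 23.1%), with a median of -0.40. Sf3b1, a large subunit that recognises the branch point, was lower (-1.96 ± 0.23), and Snrpg, a small core protein of the same particles, was higher (2.48 ± 0.21). Of 42 chromatin regulators 7 were higher (16.7%), 8 lower (19%) and 27 not past the threshold, beside 23.1% and 19.7% over all genes tested. Their median was 0.18, -0.011 without growth cone library 9 and 0.34 without soma library 25. Hdac2 (-0.80 ± 0.11) was lower and Arid1a (1.80 ± 0.27) higher. Immediate early genes were called higher for 5 of 17 (29.4%, beside 23.1% over all genes) and lower for 1.

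Noncoding RNAs were more often higher than lower. Of 18 tested long noncoding RNAs on a list of nuclear and other well known ones, 9 were higher and 1 lower, with a median of 2.11. Gas5, a host transcript of small nucleolar RNAs, had 269 to 376 TPM in growth cones and 20.7 to 66.9 TPM in somata (3.29 ± 0.32). Snhg12 (4.38 ± 0.41) and Snhg8 (4.72 ± 0.52), also hosts of small nucleolar RNAs, were higher. Malat1, which is kept in nuclear speckles, had 49.0 to 130 TPM in growth cones and 94.4 to 231 TPM in somata, overlapped between groups and was not past the threshold (-0.67 ± 0.30, adjusted p = 0.0875). Over the biotypes of the annotation, the median log2 fold change was 1.65 for 302 antisense genes, 1.28 for 321 lincRNAs, 1.52 for 1221 processed pseudogenes and -0.088 for 12644 protein-coding genes. The median also moved with level. In the lowest of 3 bins by level it was 1.21 over 5043 genes and 0.99 over the 2871 protein-coding ones. In the highest bin, where 4999 of 5043 genes were protein-coding, it was -0.40. The part of level in the biotype medians was not tested. Where counting does not use strand, reads of an antisense gene and of its partner cannot be told apart.

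The groups above differed in the length of their genes, and fold change moved with length over the whole table. The mean exonic length of the gene to which a read was assigned was 4404 ± 203 bases in growth cones and 5372 ± 222 bases in somata (SD, n = 5). No growth cone library (4129 to 4650) reached the lowest soma library (5005), and the difference had an exact permutation p of 0.00794, adjusted p = 0.0238. The tested genes were ordered by length and cut into 10 bins of equal size. In the bin with the shortest exonic lengths (56 to 963 bases), the median log2 fold change was 1.91, with 54.6% higher and 2.97% lower in growth cones. In the bin with the longest (9659 to 123179 bases) it was -0.25, with 12% higher and 25% lower. In the shortest bin 15.8% of genes were protein-coding, but with protein-coding genes alone the shortest bin (114 to 1831 bases) still had a median of 1.43.

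**Figure D4:**
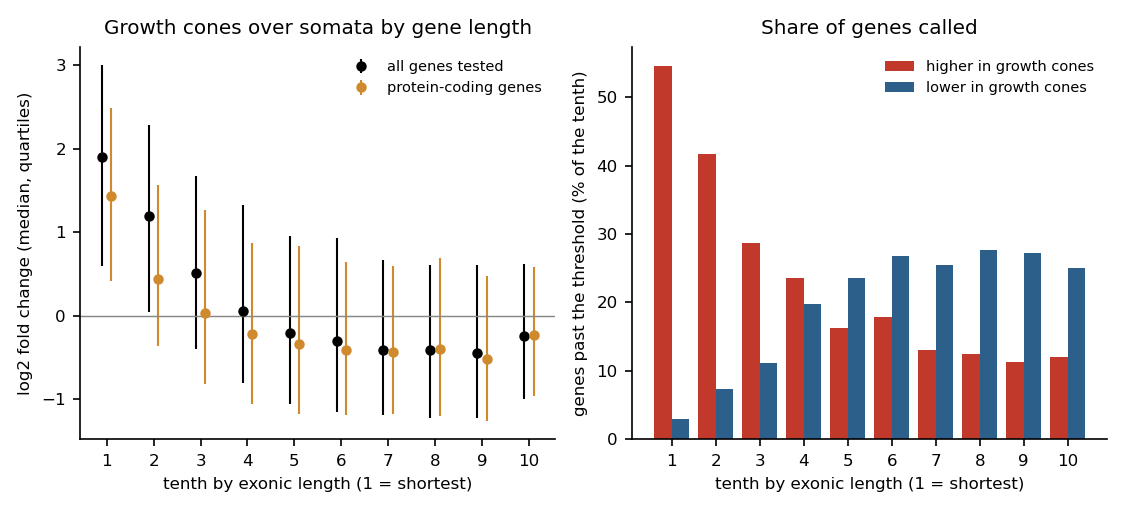
Left, median log2 fold change (points) and quartiles (bars) by bin of exonic length (10 bins of equal gene number) for all genes tested (black) and protein-coding genes (orange). Right, share of all tested genes of a bin called higher (red) or lower (blue) in growth cones; the shortest bin has 54.6% higher and 2.97% lower, the longest 12% and 25%.

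Over the 15128 genes, which are not independent replicates, the rank correlation of fold change with length was -0.324. It was -0.336, -0.268, -0.238, -0.224 and -0.287 when each growth cone library 7 to 11 was set against the mean of the somata. Soma library 12 departed from the other somata in the same direction (-0.299), while the remaining soma libraries against the rest gave 0.012 to 0.160 and single growth cone libraries against the rest -0.141 to 0.186. Without soma library 12 the correlation was -0.345. Among the 5043 genes of the highest of 3 bins by level it was -0.358.

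Length did not order all lists alike. Among the respiratory chain genes 34 of the 39 shorter members were higher and 0 lower, while 20 of the 39 longer members were higher and 10 lower. All 12 higher initiation and elongation factors were among the 30 shorter ones, of which 9 were lower. Of cytosolic ribosomal proteins 39 of 40 shorter members (median 2.004) and 38 of 41 longer members (median 1.64) were higher, a difference that was not tested. For proteasome subunits shorter and longer members were both lower, with 14 of 18 shorter members (median -0.94) and 12 of 18 longer members (median -0.69).

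**Figure D5:**
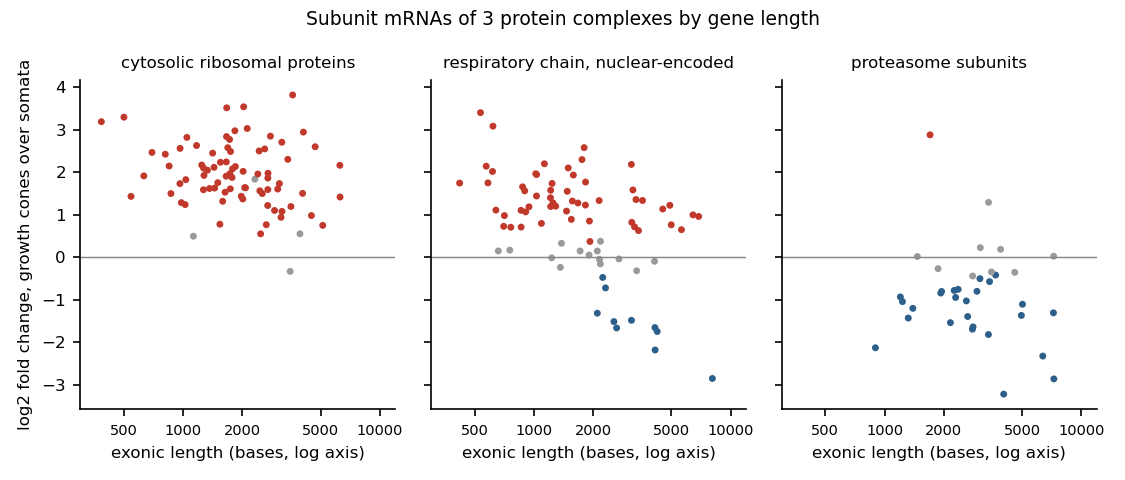
Log2 fold change against exonic length (bases, log axis) for each tested mRNA of 3 protein complexes; red higher and blue lower in growth cones, grey not past the threshold. The 10 lower respiratory chain mRNAs are among the 39 longer members of that list, while most ribosomal protein mRNAs are higher and most proteasome mRNAs lower at short and at long lengths.

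When fold changes were corrected for a smooth trend with length, a separate fit, the median of cytosolic ribosomal proteins was 0.97. That of tubulins was -1.99, of proteasome subunits -1.50 and of TRiC subunits -1.86. The medians of the respiratory chain (-0.038) and mitochondrial ribosomal proteins (0.035) were then close to 0. In that fit Eif5a (-0.93), Psmb6 (-1.27), Tuba1b (-1.11), Rab3a (-0.84), Rpl29 (-0.88), Atp5c1 (-0.95), Marcksl1 (-0.93) and Pcbp1 (-0.69) were called lower and Rpl5 (0.68) higher, none of which passed without it. Individual long genes could still be higher, such as Gnao1 (11053 bases), a G protein subunit abundant in growth cones, with a log2 fold change of 0.81 ± 0.17.

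The growth cones and somata labelled KO form a second comparison of the compartments that shares no library with the first. Their labels share experiment numbers, though: growth cones labelled KO also carry 7 to 11, and somata labelled KO carry 14, 15, 22, 25 and 26. The labels do not say what libraries of 1 number share. There 15410 genes were tested, 3328 (21.6%) were higher in growth cones and 2620 (17%) lower. All 24 genes named for abundance were called in the same direction. Ftl1 had a log2 fold change of 3.998 there against 3.95 in libraries labelled WT, Fth1 4.91 against 4.68, Ybx1 3.65 against 3.54 and Tuba1a -1.95 against -2.12. Of the 2845 genes called with at least a 4-fold change in libraries labelled WT, 2696 were tested in those labelled KO and 2083 were called in the same direction.

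Over the gene lists of the same libraries, cytosolic ribosomal proteins had 78 of 81 higher (median 1.99), TRiC subunits 7 of 8 lower (-1.81), tubulins 8 of 13 lower and 2 higher (-1.79) and respiratory chain genes 54 of 78 higher and 9 lower (1.08). Bcl11b was -3.42 there and -2.75 in libraries labelled WT, and the test of this difference was not past the threshold (adjusted p = 0.554). The test of a difference between the 2 comparisons, fitted over all 20 libraries, called 7 of 17645 genes (0.0397%), while 1231 had an unadjusted p under 0.05 and DESeq2's Wald test called 262. Neither fit had a term for the experiment number. None of the 24 genes named for abundance was among the 7.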

How the data were processed

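RNA was isolated with RNeasy Plus Micro columns, cDNA made with SMART-seq v4 and libraries with Nextera XT, per the labels' protocols. The authors deposited raw counts per gene, with no scaling. Trimmomatic 0.39, STAR 2.7.1a and featureCounts 1.5.0 are named in the submitters' processing notes. The notes also name GRCm39, but the exons of 54435 of the 55487 genes (98.1%) equal those of GENCODE M21, a GRCm38 annotation, which gave symbols to 55227 genes. All coordinates are GRCm38. Use of strand and of reads with several matches is not given in the sources used here. The table held 0 columns that matched no sample and 0 entries that name no gene.

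Libraries were grouped by title. Counts of replicates differed by far more than sampling noise (chi-square per degree of freedom at least 52.7), so none was merged. TPM were computed from counts and the table's length column, the union of a gene's exons. Counts of the 10 libraries were fitted by edgeR 4.0.16 (R 4.3.3; filterByExpr with a minimum count of 10, TMM, quasi-likelihood F test, FDR 0.05), with limma 3.58.1 and DESeq2 1.42.0 as alternatives, and the script was tested on simulated data. The SE is derived from the F statistic. The length correction added to edgeR an offset smoothed over length (span 0.3). The libraries hold no molecular identifiers that the protocol names, so a count of 3 or fewer speaks of counting error only.

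The members and gene lists were chosen with earlier results of these data known. Named genes were, per direction, the 12 of highest TPM among those called, at least 4-fold changed and not overlapping; the 8 protein-coding genes of highest TPM per compartment; per list up to 4 members past the threshold with the lowest p and 3 not past it with the highest TPM; 3 per direction in the shortest and the longest of 10 bins by length; and Bcl11b. Some genes that this rule allows are not reported here. Alternatives covered scaling, filters, test, threshold, length and each library left out.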

Additional observations from a re-analysis of the deposited data

Results flagged for a closer look

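In 148 groups of 5 libraries (levels of named genes, list sums and library measures), 7 held a library whose gap to the nearest other exceeded 0.71 of the group's range, Dixon's 95% value for 5. That value flags about 1 in 20 independent groups by chance. The groups here share the same libraries and are not independent, so 7 of 148 cannot be judged against that rate.

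Soma library 12 was the distant one in 4 of the 7. Its summed TPM was 34920 for the nuclear-encoded respiratory chain (27240 to 29350 in the other somata), 7582 for mitochondrial ribosomal proteins (5742 to 6254), 6387 for antioxidant proteins (4897 to 5246) and 1692 for axonal adhesion proteins (2426 to 2628). In each of the 4 it lay on the side of the growth cones. Its markers of astrocytes (102 TPM) and of progenitors (84.1 TPM) were the lowest of the somata.

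Soma library 26 had 18962308 counts, and the other somata 33093192 to 36059112. Selenow lay at 21430 TPM in growth cone library 11, and at 11070 to 13820 TPM in the others. Maged1 lay at 150 TPM in growth cone library 7, and at 221 to 248 TPM in the others.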

How the results depend on the processing

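No paired analysis was possible for the main comparison because growth cones and somata labelled WT share no experiment number. The count of genes called was 6476 and stayed between 5112 and 7475 over other scalings, filters, tests, depth thinning and a length offset (4394 at an FDR of 0.01), but 3127 differed by more than 2-fold by glmTreat, 1999 higher and 1128 lower. At an FDR of 0.01, 1980 were lower. Leaving out each library gave 5776 to 6536 calls, 3187 to 3713 higher and 2383 to 3118 lower. The median of all genes (0.069) was 0.28 under upper-quartile scaling, 0.222 under library totals, -0.169 with limma-voom and -0.094 with the length offset, and changes are relative to it. The test of a difference between WT and KO labels gave 7 calls, and 262 with DESeq2. With the experiment number as a block, added after seeing the data, edgeR gave 0 calls (908 genes at an unadjusted p under 0.05). Deviations of single libraries from their group mean correlated by -0.047 to 0.088 over 9 same-numbered pairs. Of 18 libraries with such a partner, 12 correlated best with it among the 5 libraries of their compartment with the other genotype label. What same-numbered libraries share was not tested further. The length correlation (-0.324) was -0.142 with no filter, -0.255 for protein-coding genes and between -0.345 and -0.292 without each library in turn. In strata chosen after seeing the data it was -0.190 and -0.228 in the lowest and middle of 3 bins by level and -0.199, -0.178 and -0.264 in the lower 3 of 4 bins of protein-coding genes by GC content. The length offset reversed the medians of the respiratory chain (-0.038), mitochondrially encoded proteins (-1.47) and microglia markers (-0.397). The median of mRNAs reported in axons (-0.057) was 0.097 under library totals and 0.15 under upper-quartile scaling, and that of chromatin regulators (0.18) lay between -0.011 and 0.337 without each library in turn. The offset also reversed the signs of Tmsb4x (-0.14), mt-Nd2 (-0.51), Rpl29 (-0.88), Atp5c1 (-0.95), Cct2 (-0.53), Marcksl1 (-0.934) and Pcbp1 (-0.69). Of 128 genes examined, 103 kept direction and side of the threshold in every fit. The causes of these shifts were not tested. Depth limits genes with few counts in somata, whose levels alone are given.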
